A study of Mus musculus with 15 samples.

Results

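Accessible chromatin was examined at 43 genes of the lysosome, among them the cathepsins, in microglia sorted from mouse brain. The genes were a given list, and each ATAC-seq peak summit was given to the closest body of a protein-coding gene within 100 kb, out of 21627 such genes (mm10, RefSeq). All 43 genes were found in the gene table. Of 65405 regions built from the strongest peaks of 15 libraries, 196 belonged to 41 of the 43 genes. The libraries fell into 7 groups of 2, except for 3 libraries of IRF8KO at P9. Juvenile mice, WT or IRF8KO, were sampled on postnatal day 9 (P9) or 14 (P14), and older mice, WT or 5xFAD, at 10 months. All were on the C57BL/6 strain. The juvenile groups were untreated. All 3 groups of 10 months, WT included, had been given methoxy-X04, an amyloid-binding dye, by which the 5xFAD cells were split into an X04 negative and an X04 positive sort. Which part of Irf8 is deleted in IRF8KO is not known here. The transgenes of the 5xFAD line are expressed from a neuronal Thy1 promoter, so amyloid in this model comes from neurons.

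The lysosome is the acidic compartment in which a macrophage breaks down what it has taken up. Cathepsins and legumain cut proteins, other hydrolases remove sugars, sulfates and lipids, the V-ATPase pumps in protons, and membrane proteins line the organelle and carry products out. Many of these genes carry a CACGTG element near their start that is bound by TFEB, TFE3 and MITF, the factors known for switching lysosomal genes on together. IRF8 is a myeloid transcription factor that binds with PU.1 at composite ETS-IRF elements and at interferon-stimulated response elements.

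A list holds the peaks of 1 library, and a peak's rank is its place by −log10 p, rank 1 being the strongest. A region is 400 bp long, and its rank in a library is that of the best summit within 200 bp. Ranks stop at 126070, the length of the shortest list, and a region with no peak above that limit was set to it. This understates differences in rank from such libraries. It also removes the spread among libraries set to the limit, so standard errors and p-values at such regions may be too small. Longer lists can hold weaker peaks beyond the limit, and these were not looked at. A peak among the top 30000 is called strong. Differences are on the −log2 rank scale, so a difference of +1 means that the rank number was 1/2 as large. The limma test was run over all regions that were strong in at least 2 libraries of the ages compared, with Benjamini-Hochberg adjustment over all of them. Of the 196 lysosomal regions, 138 were tested in the juvenile libraries and 131 at 10 months.

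The libraries held 126070 to 194399 peaks and differed in strength. The −log10 p at rank 30000 was 46.7 ± 10.8 (SD, n = 2) in WT and 77.5 ± 3.71 (n = 3) in IRF8KO at P9, and 65.0 ± 4.53 in WT and 24.7 ± 2.63 in IRF8KO at P14 (each n = 2). IRF8KO libraries were thus the stronger ones at P9 and the weaker ones at P14. At 10 months WT had 20.9 ± 3.17, X04 negative 22.1 ± 3.10 and X04 positive 6.17 ± 0.177 (each n = 2). Irf8 had 11 and 11 strong peaks in WT and 9, 9 and 11 in IRF8KO at P9, 12 and 12 against 11 and 9 at P14, and 3 to 10 at 10 months. Peaks outside a deleted part check nothing, so these counts leave the genotype labels unchecked. The 10 microglial marker genes had 40 to 46 strong peaks in all WT and X04 negative libraries, 29 to 35 and 37 to 43 in IRF8KO at P9 and P14, and 23 and 29 in X04 positive libraries. Sall1 was alone among these 10 genes in having no strong peak in any IRF8KO library. Of 50 tested regions at the 10 genes, 6 ranked higher in IRF8KO and 15 lower by the limma test over both ages. That is a share of 42%, against 50.8% of all regions. The 8 marker genes of border-associated macrophages had 17 to 21 strong peaks in IRF8KO and 9 to 11 in juvenile WT. In bulk libraries fewer cells of a type and less signal per cell cannot be told apart. The labels do not state whether the libraries of 1 group are from different animals, and the p-values therefore describe spread among libraries, which may be technical.

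Promoter sequences were taken from RefSeq (GRCm38.p6, the assembly that mm10 names), as the 300 bases from 250 before to 50 after each listed start, and 37 of the 43 genes had an entry. The letters CACGTG were searched on both strands, and since they read the same on both, each match was counted once. They were found at 14 of the 37 genes and at 9.02% of all 17273 genes with an entry. These 14 were the cathepsin genes Ctsa, Ctsd, Ctsf and Ctsl, the legumain gene Lgmn, the hydrolase genes Gaa, Gla, Glb1, Naglu, Sgsh and Arsa, and Lamp1, Mcoln1 and Atp6v0d1. A composite ETS-IRF element, searched on both strands as GGAA and GAAA with any 2 bases between them, was found at 2 of 37 genes and at 3.02% of all genes. The interferon-stimulated response element, searched likewise as GAAA and GAAA with any 2 bases between them, was found at 3 genes (Ctso, Ctss and Lamp1) and at 3.98% of all genes, and the PU.1 core GAGGAAG, on both strands, at 9 genes and at 15.1% of all genes. Matches of different motifs may overlap. A match describes the letters and not a bound site. A set of 4 promoters with the CACGTG letters in capitals is shown. Regions at all 4 starts were measured: Ctsd and Mcoln1 ranked lower in IRF8KO, and at Naglu and Ctsl no genotype difference passed the test. They are not the only ones of the 14 with a measured start. The Lgmn start ranked higher in IRF8KO, and the starts of Atp6v0d1 and Glb1 did not pass the test. Regions at the starts of Ctsf, Gaa and Lamp1 were also present, and none of these was among the starts that passed the test.
Ctsd, chr7:142387778-142388077, minus strand: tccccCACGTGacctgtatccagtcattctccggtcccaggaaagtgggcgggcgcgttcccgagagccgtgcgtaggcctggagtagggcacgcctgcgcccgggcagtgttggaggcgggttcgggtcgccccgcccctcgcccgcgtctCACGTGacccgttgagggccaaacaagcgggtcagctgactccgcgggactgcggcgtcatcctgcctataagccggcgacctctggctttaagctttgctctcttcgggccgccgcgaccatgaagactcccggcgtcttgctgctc
Mcoln1, chr8:3500269-3500568, plus strand: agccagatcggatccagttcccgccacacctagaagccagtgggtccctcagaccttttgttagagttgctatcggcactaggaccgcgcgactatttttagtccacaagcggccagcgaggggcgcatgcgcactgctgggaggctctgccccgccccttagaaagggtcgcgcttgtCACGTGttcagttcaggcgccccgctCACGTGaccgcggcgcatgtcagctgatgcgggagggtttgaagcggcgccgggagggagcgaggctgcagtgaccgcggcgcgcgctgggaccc
Naglu, chr11:101069844-101070143, plus strand: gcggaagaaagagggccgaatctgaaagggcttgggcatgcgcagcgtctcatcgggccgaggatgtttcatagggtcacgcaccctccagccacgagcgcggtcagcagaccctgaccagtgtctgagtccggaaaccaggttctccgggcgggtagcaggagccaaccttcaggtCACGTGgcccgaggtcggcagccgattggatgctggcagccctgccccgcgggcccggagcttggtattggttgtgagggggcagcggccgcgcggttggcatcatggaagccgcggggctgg
Ctsl, chr13:64370471-64370770, minus strand: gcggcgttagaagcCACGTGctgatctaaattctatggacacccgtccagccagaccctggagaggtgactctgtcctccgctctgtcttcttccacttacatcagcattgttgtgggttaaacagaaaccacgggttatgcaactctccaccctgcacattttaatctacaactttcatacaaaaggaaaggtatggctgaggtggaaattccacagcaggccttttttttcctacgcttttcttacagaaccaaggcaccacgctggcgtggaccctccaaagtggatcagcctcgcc
Ctsd and Mcoln1 each held the element at 2 places, and Naglu and Ctsl at 1. The 2 promoters with the composite element follow, with the match in capitals as it reads on the gene's strand, where it is the reverse complement of the searched letters.
Cd68, chr11:69666121-69666420, minus strand: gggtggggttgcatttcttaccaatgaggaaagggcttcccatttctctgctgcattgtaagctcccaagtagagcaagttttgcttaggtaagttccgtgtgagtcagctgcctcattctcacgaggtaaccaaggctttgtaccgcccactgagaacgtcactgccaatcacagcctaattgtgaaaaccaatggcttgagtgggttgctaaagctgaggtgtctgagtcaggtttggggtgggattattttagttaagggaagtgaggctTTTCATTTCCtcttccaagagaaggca
Scarb2, chr5:92505608-92505907, minus strand: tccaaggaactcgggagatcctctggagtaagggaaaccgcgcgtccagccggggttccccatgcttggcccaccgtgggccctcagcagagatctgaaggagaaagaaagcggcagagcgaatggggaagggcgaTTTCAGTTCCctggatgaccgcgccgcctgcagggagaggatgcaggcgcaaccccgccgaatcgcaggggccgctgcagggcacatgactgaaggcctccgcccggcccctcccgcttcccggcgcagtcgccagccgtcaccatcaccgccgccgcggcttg
The promoter of Npc2 is shown because its region had the best mean rank of all 196, and it held none of the 4 motifs.
Npc2, chr12:84773063-84773362, minus strand: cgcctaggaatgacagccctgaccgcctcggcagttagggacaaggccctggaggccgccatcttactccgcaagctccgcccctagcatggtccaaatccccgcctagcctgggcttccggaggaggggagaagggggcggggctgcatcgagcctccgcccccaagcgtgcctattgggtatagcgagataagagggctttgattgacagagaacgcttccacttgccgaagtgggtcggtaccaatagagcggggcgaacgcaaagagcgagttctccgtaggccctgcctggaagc

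Strong peaks at the 43 genes numbered 116 and 110 in WT and 117, 122 and 113 in IRF8KO at P9, 112 and 114 in WT and 124 and 110 in IRF8KO at P14. The juvenile genotypes overlapped at both ages. At 10 months WT had 134 and 125, X04 negative 128 and 129, and X04 positive 88 and 77, so that the X04 positive libraries lay below all others. The genes took 0.367% to 0.447% of the 30000 strong peaks outside the X04 positive libraries and 0.293% and 0.257% within them. Of the 43 genes, 32 had a strong peak in every library. Arsb, the gene of arylsulfatase B, had the most, with 6 to 10 outside the X04 positive libraries and 4 in each of those. Scarb2, which encodes the membrane protein that carries glucocerebrosidase to the lysosome, had 6 to 8 and then 4 and 3. Ctsc, the gene of cathepsin C, which activates serine proteases, had 5 to 9 and then 5 and 3. Per 10 kb of the sequence nearest to each gene these means over all libraries were 0.314 at Arsb, 0.710 at Scarb2 and 0.388 at Ctsc, so the order of the counts was not that of the density. Ctsk, the gene of the osteoclast cathepsin, had 1 strong peak in each of the 5 IRF8KO libraries and none in the other 10.

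**Figure D1:**
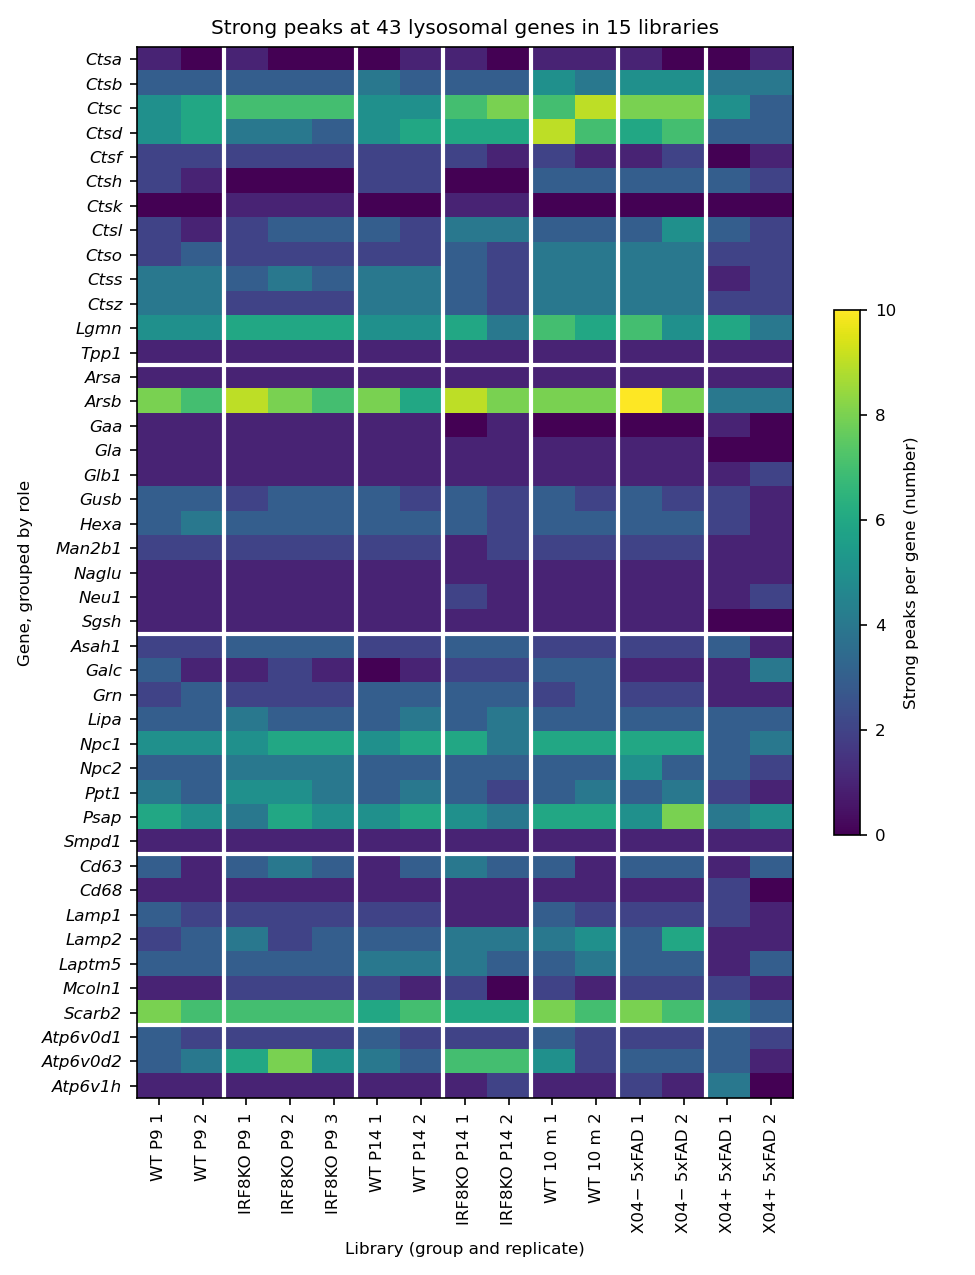
Strong peaks (among the 30000 top-ranked of a library) per gene, with the 43 genes in rows grouped by role and the 15 libraries in columns grouped by genotype, age and X04 sort; the colour gives the number of peaks. Arsb, Scarb2 and Ctsc are the brightest rows, Ctsh is at 0 in the 5 IRF8KO columns, and the 2 X04 positive columns are darker than the others in most rows.

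A region centred within 500 bp of a listed start of its gene, called a start region below, was present for 30 of the 37 genes with an entry. This split of regions was chosen after the values were seen. At 19 of the 37 genes (51.4%) a start region was strong in all 15 libraries, against 27.9% of the 17273 genes with an entry. The best ranked was that of Npc2, a protein that hands cholesterol to NPC1, at rank 135 to 835 in all 15 libraries. The start of Gusb, the gene of beta-glucuronidase, ranked 802 to 2396 outside the X04 positive libraries and 4778 and 5627 in those. Lgmn led the protease genes with rank 894 to 8272, and the start region of Atp6v0d1, a subunit of the V-ATPase stalk, ranked 930 to 7952. Among the membrane proteins the leading region lay 6.76 kb before the listed start of Cd63, a tetraspanin of late endosomes, at 1798 to 27148. Neither Ctsa nor Gla had a region, although peaks lie at their starts. The 2 regions at the Ctsa start fell to its neighbour Neurl2, and 1 of them ranked lower in IRF8KO (difference −0.84, limma adjusted p = 0.00168). The region at the Gla start, which was strong in all 15 libraries, fell to Hnrnph2. Regions at the Hexa and Sgsh starts likewise fell to Tmem202 and Slc26a11, and no start region stayed with Hexa or Sgsh. A region at the Glb1 start fell to Tmppe, while Glb1 kept another start region.

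The comparison of IRF8KO with WT asks where loss of this factor goes along with a change in accessibility. Over both ages 73 of the 138 lysosomal regions were called, 33 of them ranked higher in IRF8KO and 40 lower. Over all 37506 regions tested the share called was 50.8%, with 25.3% higher and 25.5% lower, and the lysosomal share of 52.9% was near it. The median difference was −0.11 at the lysosomal genes and 0.00 over all regions. Calls were made at 30 of the 41 genes with tested regions. Calls at Ctsk, Man2b1, Lamp2, Cd63 and Atp6v0d2 were only higher, those at 14 genes only lower, and those at 11 genes went both ways. At 11 genes (Ctsl, Tpp1, Gaa, Glb1, Gusb, Naglu, Sgsh, Arsa, Lipa, Cd68 and Atp6v1h) no region passed the test. Of the 138 regions, 13 of 15 that were strong in IRF8KO only and 10 of 11 that were strong in WT only were called, which the choice of regions made likely. Among the 112 strong in both genotypes 50 were called (44.6%), 20 higher and 30 lower. Over all genes and places 9092 of 26596 such regions were called (34.2%), 3950 higher and 5142 lower.

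**Figure D2:**
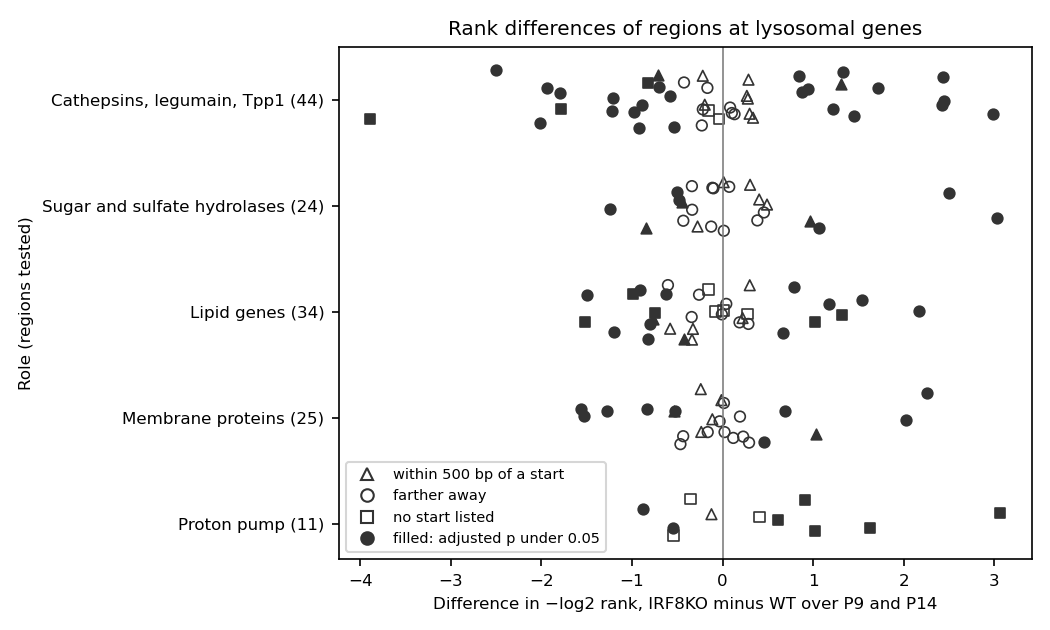
Difference in −log2 rank, IRF8KO minus WT over P9 and P14, for the 138 lysosomal regions tested, by role of the gene; filled symbols passed the limma test at an adjusted p under 0.05, and the shape gives the place relative to a start. Filled symbols stand on both sides of 0 in all 5 roles, from −3.89 at Ctsh to 3.07 at Atp6v0d2.

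Among the 13 protease genes, 28 of 44 regions were called (63.6%, against 50.8% of all regions), 12 higher and 16 lower. The region with the smallest adjusted p lay across one end of Ctsh, the gene of the aminopeptidase cathepsin H (chr9:90054258-90054658), with its centre 191 bp inside the gene. It ranked 2594 and 2603 in WT and 38720, 43296 and 51900 in IRF8KO at P9, and 3591 and 2884 in WT and 34926 and 48839 in IRF8KO at P14. The genotypes did not overlap at either age, with a difference of −3.89 ± 0.20 (SE, adjusted p = 3.94e-12). In the 10-month libraries the region ranked 1861 to 4221, the X04 positive ones included. Another region inside Ctsh (chr9:90060370-90060770) ranked 27488 to 33884 in juvenile WT and 89319 to 126070 in IRF8KO, a difference of −1.78 ± 0.16 (adjusted p = 1.04e-08). These were the 2 Ctsh regions tested, and the gene had no strong peak in any IRF8KO library.

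Ctso, the gene of the little studied cathepsin O, had a region 6.55 kb before its start that ranked lower in IRF8KO (chr3:81925848-81926248). That region ranked 19814 and 18998 in WT at P9 and 30578 and 21155 at P14. No peak above the limit was found there in any of the 5 IRF8KO libraries (difference −2.50 ± 0.16, adjusted p = 6.08e-11). It was also without a peak above the limit in both X04 positive libraries, while the other 10-month libraries ranked it 12465 to 29519.

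Ctsc showed the reverse at 4 regions before its start. One lay 34.8 kb before it (chr7:88243047-88243447), with no peak above the limit in the 4 juvenile WT libraries. IRF8KO libraries ranked it 20764, 24377 and 23711 at P9, and 21431 and 25294 at P14 (difference 2.45 ± 0.15, adjusted p = 5.6e-11). The others were 70.5 kb (2.43 ± 0.18, adjusted p = 5.06e-10), 7.40 kb (2.43 ± 0.17, adjusted p = 2.04e-10) and 6.40 kb before the start. The last ranked 49196 and 65027 in WT and 7057, 5203 and 7035 in IRF8KO at P9, and 79823 and 58518 against 5888 and 15850 at P14 (2.99 ± 0.25, adjusted p = 2.57e-09). All 4 stood above WT without overlap at both ages. Another region of the same stretch, 52.1 kb before the start, went the other way, from 7730 to 11693 in WT to 25253 to 47739 in IRF8KO (−1.79 ± 0.19). Of the 10 tested Ctsc regions 6 were called, 4 higher and 2 lower.

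Ctss and Ctsk are neighbours on chromosome 3, and the regions between and within them differed in direction. Ctss encodes cathepsin S, which trims the invariant chain for antigen presentation. A region 5.41 kb before its start (chr3:95521178-95521578) ranked 12602 and 11967 in WT and 46760, 39786 and 45031 in IRF8KO at P9, and 12458 and 8374 against 49902 and 35178 at P14. The ranks did not overlap (difference −1.93 ± 0.19, adjusted p = 2.43e-08). A region inside the gene, 3.24 kb after the start, fell from 2891 to 4884 in WT to 10960 to 18075 in IRF8KO (−2.01 ± 0.23, adjusted p = 3.12e-07). Between them a region 2.87 kb before the start was higher in IRF8KO (0.94 ± 0.23). The only region assigned to Ctsk, 2.62 kb beyond that gene (chr3:95511803-95512203), rose from 34418 to 45210 in WT to 9886 to 20142 in IRF8KO (1.71 ± 0.20, adjusted p = 4.48e-07).

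All 6 tested regions of Lgmn, the asparaginyl protease that also activates cathepsins, were called (50.8% over all regions), 5 higher and 1 lower. Its start region ranked 6128 and 3424 in WT and 3268, 2484 and 3561 in IRF8KO at P9, and 5746 and 8272 against 3198 and 894 at P14 (1.30 ± 0.34, adjusted p = 0.00274). WT overlapped IRF8KO there at P9 and not at P14. Regions 43.3 kb and 12.6 kb inside the gene differed by 1.46 ± 0.24 and 1.34 ± 0.21. Ctsd, the gene of the aspartic protease cathepsin D, had 1 region higher and 3 lower, its start among the lower ones (−0.72 ± 0.21, adjusted p = 0.00659). Single or paired calls at Ctsb, Ctsf and Ctsz, which encode cathepsins B, F and Z, were all lower and between −0.82 and −1.22. The start of Tpp1, a tripeptidyl peptidase, differed by 0.30 ± 0.25 (adjusted p = 0.344), and that of Ctsl by −0.22 ± 0.24 (adjusted p = 0.481).

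**Figure D3:**
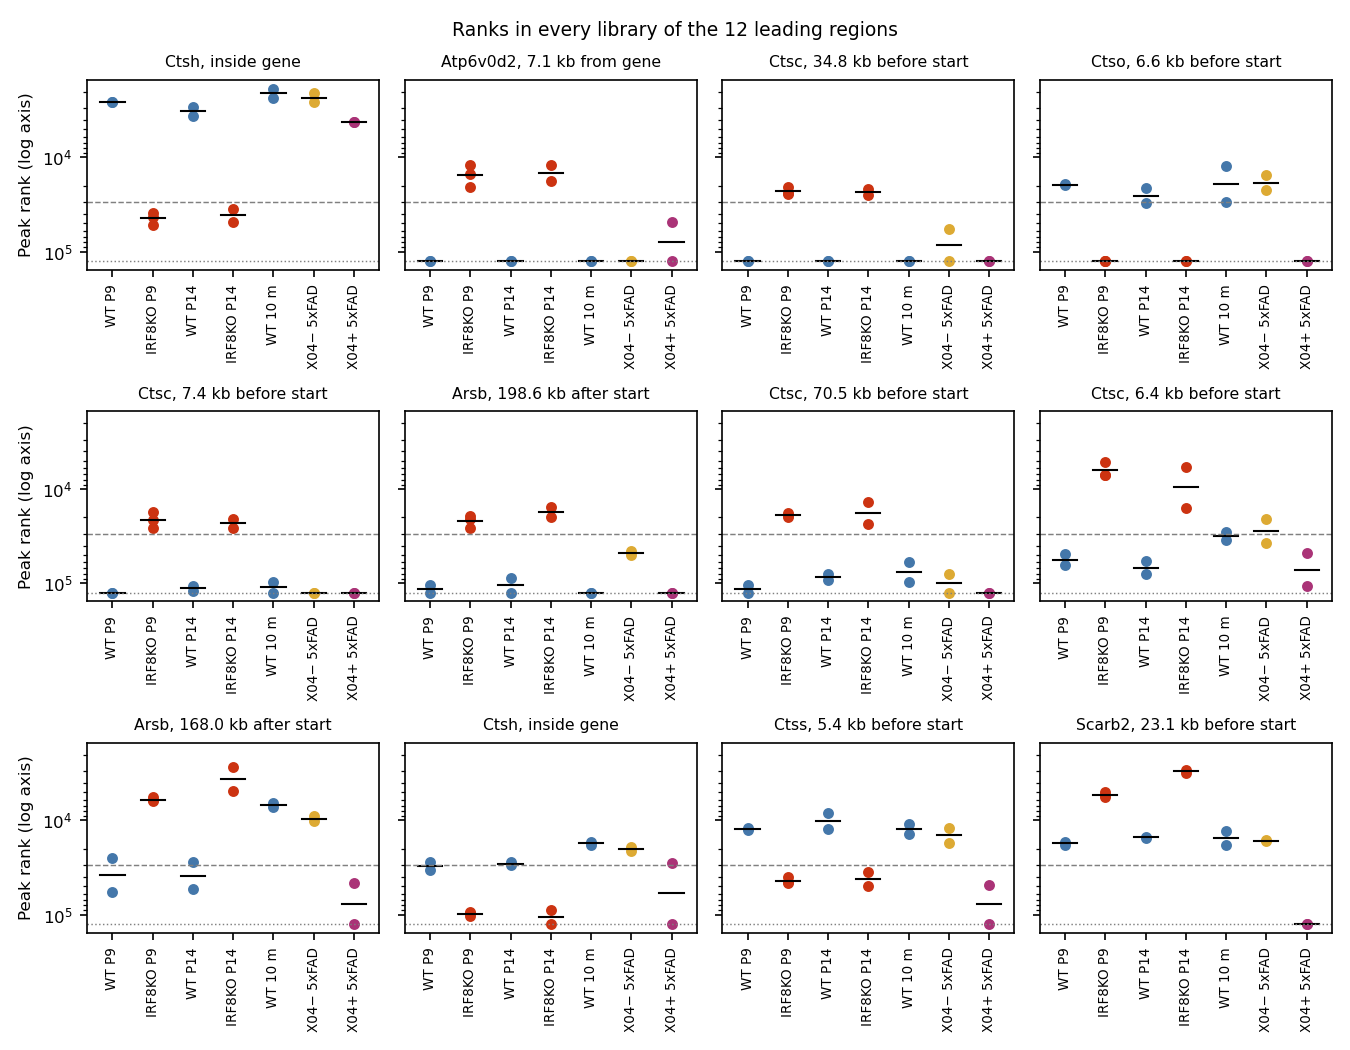
Ranks in every library (points, log axis with strong ranks at the top) and group geometric means (black lines) of the 12 lysosomal regions with the smallest adjusted p for IRF8KO against WT; the dashed line is rank 30000 and the dotted line the limit of 126070. In each panel the red IRF8KO points lie apart from the blue juvenile WT points, on one side at both ages.

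Of 24 regions at the genes of sugar and sulfate hydrolases 9 were called (37.5%, against 50.8% of all regions), 4 higher and 5 lower. Arsb carried 5 of these. A region inside Arsb, 168 kb after the start (chr13:93939455-93939855), ranked 57178 and 25174 in WT and 6282, 5707 and 6096 in IRF8KO at P9, and 27904 and 53066 against 2720 and 4883 at P14. The difference was 3.03 ± 0.27 (adjusted p = 6.23e-09), and in WT and X04 negative libraries at 10 months the region ranked 6606 to 10245. A region 27.3 kb beyond the gene (chr13:93970106-93970506) ranked 89255 to 126070 in juvenile WT and 15510 to 25934 in IRF8KO (2.50 ± 0.18, adjusted p = 2.53e-10). Start regions of Man2b1, a mannosidase, and Neu1, the lysosomal sialidase, went opposite ways, with 0.97 ± 0.26 (adjusted p = 0.0035) and −0.85 ± 0.29 (adjusted p = 0.0198). Hexa, which encodes the alpha subunit of beta-hexosaminidase, had 2 lower regions of 3, the larger difference 5.43 kb into the gene (−1.24 ± 0.24, adjusted p = 0.000223). No region of Gaa, Glb1, Gusb, Naglu, Sgsh or Arsa passed the test.

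The 9 genes of lipid breakdown and cholesterol export had 18 called regions of 34 (52.9%, against 50.8% of all regions), 7 higher and 11 lower. The largest rise was at Ppt1, a palmitoyl thioesterase, inside the gene (chr4:122848004-122848404). It ranked 18519 and 12527 in WT and 1474, 1732 and 2529 in IRF8KO at P9, and 10924 and 12984 against 2937 and 7848 at P14. The 2 genotypes stood apart at both ages (2.17 ± 0.29, adjusted p = 2.28e-06). The largest fall was at Asah1, the gene of acid ceramidase, where a region inside the gene (chr8:41363925-41364325) went from 3108 to 6158 in WT to 10829 to 16596 in IRF8KO (−1.51 ± 0.23, adjusted p = 1.31e-05). Npc2 had a region 24.8 kb after its start that fell from 3427 to 5796 in WT to 9734 to 15462 (−1.50 ± 0.22, adjusted p = 7.05e-06), while its start differed by −0.58 ± 0.47 (adjusted p = 0.326). At Galc, which degrades galactosylceramide, 2 regions inside the gene were higher and the start lower (−0.43 ± 0.16, adjusted p = 0.0345). The start of Smpd1, the gene of acid sphingomyelinase, was lower (−0.77 ± 0.31, adjusted p = 0.0435), and so were 2 regions at Psap, the saposin precursor, and 1 at Grn, the progranulin gene. Npc1 had 1 higher and 2 lower regions of 6. Lipa, the gene of lysosomal acid lipase, had no call among 4 regions, and its start ranked 251 to 1112 in all 15 libraries.

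At the 7 genes of membrane proteins 11 of 25 regions were called (44%, against 50.8% of all regions), 5 higher and 6 lower. Of these, 5 lay at Scarb2. A region 23.1 kb before the Scarb2 start (chr5:92528529-92528929) ranked 18133 and 17069 in WT and 5049, 5579 and 5392 in IRF8KO at P9, and 14919 and 15343 against 2901 and 3106 at P14 (2.03 ± 0.21, adjusted p = 5.11e-08). Closer to the start, at 3.38 kb before it, the difference was 2.26 ± 0.23 (adjusted p = 5.88e-08). Inside Scarb2 3 regions fell, 20.6 kb, 38.4 kb and 64 kb after the start, by 1.52, 1.56 and 0.83. The start itself, whose promoter holds the composite element shown above, was not among the called regions. Cd63 had 2 higher regions, 1 of them 424 bp after a listed start (1.04 ± 0.19, adjusted p = 0.00013). Lamp1, a main glycoprotein of the lysosomal membrane, had a lower region 3.57 kb before its start (−1.28 ± 0.18, adjusted p = 3.24e-06), and the start of Mcoln1, the lysosomal calcium channel, was lower by a small amount (−0.54 ± 0.19, adjusted p = 0.0259). The start of Cd68, a glycoprotein of macrophage lysosomes with the other composite element, ranked 4659 to 7310 in all 9 juvenile libraries and differed by −0.24 ± 0.22 (adjusted p = 0.404).

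Of 11 regions at the 3 proton pump genes 7 were called (63.6%, against 50.8% of all regions), 5 higher and 2 lower. All 5 higher ones lay at Atp6v0d2, a subunit form known from osteoclasts and some macrophages. Its leading region lay 7.12 kb from the gene (chr4:19869518-19869918). It had no peak above the limit in the 4 juvenile WT libraries. IRF8KO libraries ranked it 12052, 15040 and 20584 at P9, then 17664 and 12028 at P14. The difference of 3.07 ± 0.19 (adjusted p = 3.15e-11) was the largest rise among lysosomal regions. No peak above the limit was found there in WT and X04 negative libraries at 10 months either. The other called Atp6v0d2 regions differed by 0.62 to 1.63. Both called regions of Atp6v0d1, the form found in most cells, were lower (−0.88 ± 0.21 and −0.54 ± 0.19), and its start differed by −0.12 ± 0.35 (adjusted p = 0.804). Strong peaks at Atp6v0d2 numbered 3 to 4 in juvenile WT and 5 to 8 in IRF8KO.

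Of the 31 lysosomal start regions tested 9 were called, 3 higher (Lgmn, Man2b1 and Cd63) and 6 lower (Ctsd, Arsb, Neu1, Smpd1, Galc and Mcoln1), against 20.6% of start regions of all genes. Away from starts 51 of 85 were called, or 60%, against 59.4% over all genes. At the 6 genes without an entry (Asah1, Atp6v0d2, Atp6v1h, Ctsb, Ctsh and Npc1) 13 of 22 were called (59.1%), against 51.7% over all such genes. Shares at lysosomal genes and at all genes were close for the regions away from starts. The median size of the difference was 0.30 at starts and 0.66 away from them.

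**Figure D4:**
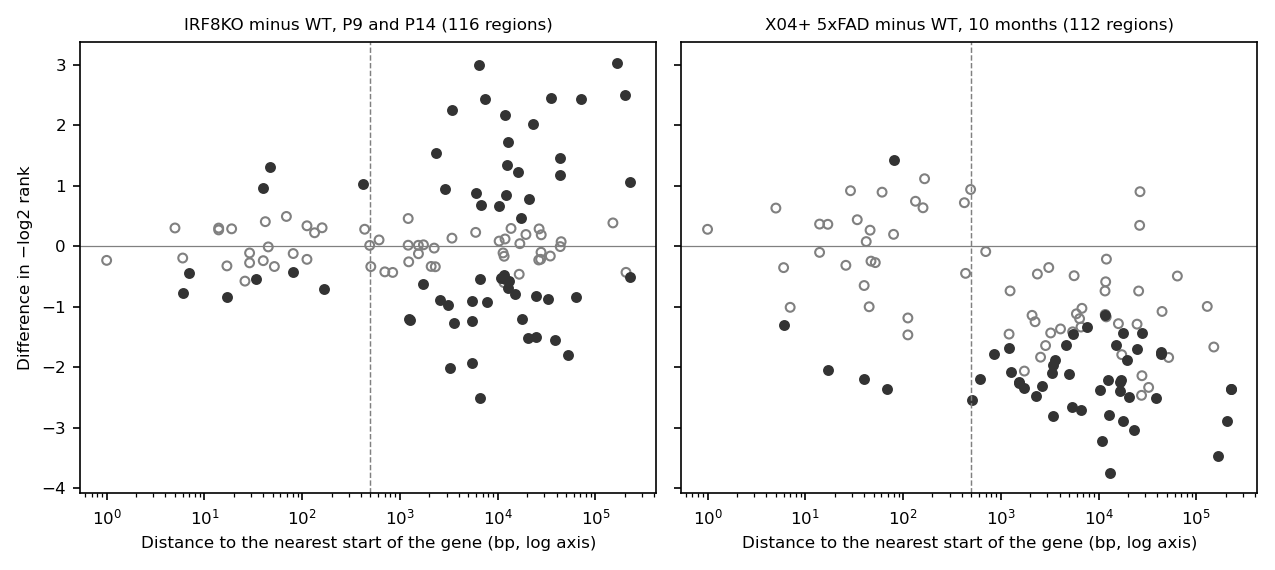
Difference in −log2 rank against distance to the nearest listed start of the gene (log axis; dashed line at 500 bp) for lysosomal regions, IRF8KO minus WT on the left (116 regions) and X04 positive 5xFAD minus WT on the right (112 regions); filled points passed the limma test. On the left the points beyond 500 bp spread to both sides of 0, and on the right nearly all of them lie below 0.

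The 2 ages gave similar differences in separate libraries. At P9 56 lysosomal regions were called, 29 higher and 27 lower, where 41.5% of all regions were called. At P14 55 were called, 27 higher and 28 lower, where 42.1% of all regions were called. At both ages 42 were called, which is 75% of the P9 calls and 76.4% of the P14 calls, and all 42 had the same direction, 24 higher and 18 lower. The same shares over all regions were 76.0% and 74.9%, so the lysosomal overlap was near that of all regions. Over all regions called at both ages 99.5% had the same direction, so the lysosomal genes were no exception. The IRF8KO libraries lay above WT without overlap at both ages at 26 lysosomal regions (22.3% of all regions did so) and below at 35 (22% of all regions). Regions at Npc1, Psap and Laptm5 were separated in opposite directions at the 2 ages, which 3.25% of all regions were. The Psap region, 16.9 kb before the start, ranked 3588 and 3295 in WT and 5269, 4328 and 7900 in IRF8KO at P9, and 6177 and 3460 against 3179 and 2223 at P14. Its difference changed by 1.51 ± 0.55 between the ages, which did not pass the test (adjusted p = 0.199).

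**Figure D5:**
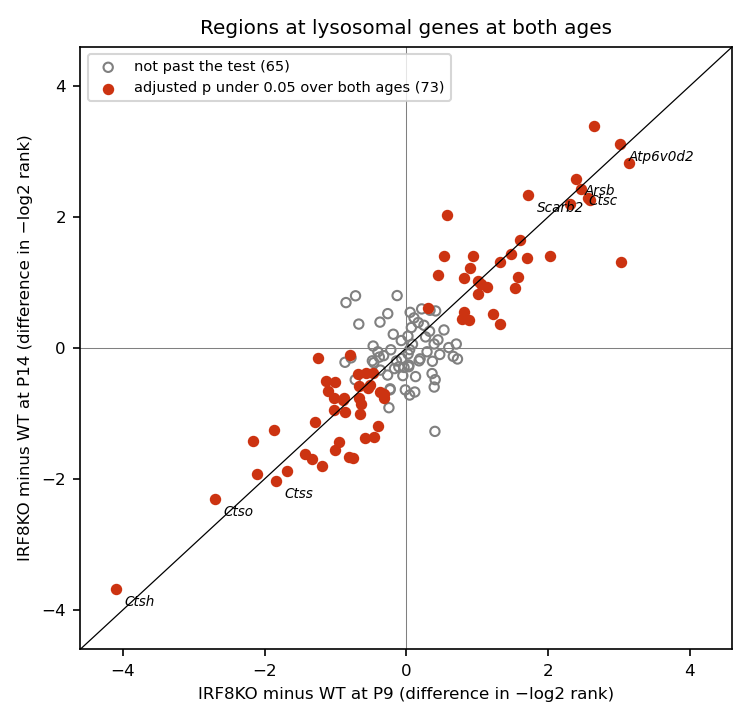
IRF8KO minus WT at P14 against the same difference at P9 for the 138 lysosomal regions, in −log2 rank; the diagonal marks equal differences, and red points passed the limma test over both ages. The 73 red points lie along the diagonal, from Ctsh at the lower left to Arsb and Atp6v0d2 at the upper right.

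Change with age was small beside the genotype difference. In WT no lysosomal region was called between P9 and P14 (limma, 7 at an unadjusted p under 0.05, where 0.056% of all regions were called, 0.0107% higher and 0.0453% lower). In IRF8KO 4 were called, 1 higher and 3 lower at P14, against 5.69% of all regions, with 2.31% higher and 3.38% lower. The IRF8KO lists were much weaker at P14 than at P9, with a −log10 p at rank 30000 of 24.7 against 77.5. In WT these values were 65.0 at P14 and 46.7 at P9. The part of library strength in the calls between ages was not tested. The Ctsd region 12.7 kb before the start (chr7:142400353-142400753) in IRF8KO ranked 74201, 55457 and 50733 at P9, then 18570 and 20665 at P14 (1.60 ± 0.26, adjusted p = 0.00207), while WT ranked it 32637 and 19248 at P9 and 20222 and 15416 at P14. The 3 that fell were at Ppt1 (−1.37 ± 0.39, adjusted p = 0.046), Scarb2 (−0.91 ± 0.24, adjusted p = 0.0288) and Gusb (−0.90 ± 0.25, adjusted p = 0.0364). The count was 1, 2 and 1 without the first, the second and the third IRF8KO P9 library, and without the first IRF8KO P14 library it was 9. Without the first or the third IRF8KO P9 library, and with array weights, only the Ctsd region was called, so the calls at Ppt1, Scarb2 and Gusb were all lost. The balance of directions was not stable either. Ranking by fold enrichment called 12, 9 higher and 3 lower (10.3%, against 10.6% of all regions), and without the second IRF8KO P14 library 3 were higher and 1 lower. The change of the genotype difference with age was called at no lysosomal region (limma, 14 at an unadjusted p under 0.05; 0.485% of all regions were called). Ranking by fold enrichment gave 9 of 117 (7.69%), where 9.58% of all regions were called, and leaving out the first IRF8KO P14 library gave 2 (1.45%), where 2.6% were.

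Other genes of the pathway, in 3 lists of 85 genes, had 134 of 255 regions called in IRF8KO against WT, 59 higher and 75 lower (52.5%). The share was near that of all regions, of which 50.8% were called, 25.3% higher and 25.5% lower. Of 74 regions at further enzymes and their inhibitors 13 were higher and 25 lower. At Cst3, the gene of the cathepsin inhibitor cystatin C, 5 of 7 regions were lower, with the largest difference at −1.69 ± 0.20. Of 96 regions at further membrane and pump genes 27 were higher and 24 lower. A region at Tcirg1, the osteoclast form of the pump's a subunit, was lower (adjusted p = 1.71e-12), and one at Laptm4a rose by 4.31 ± 0.26 (adjusted p = 3.46e-11). Of 85 regions at genes of sorting and regulation 19 were higher and 26 lower. Gnptab, the enzyme that tags hydrolases with mannose 6-phosphate, had 3 of 6 regions higher, the first by 4.44 ± 0.18 (adjusted p = 2.57e-13). At the TFEB family calls went both ways, with 2 higher and 4 lower of 9 at Tfeb, 1 higher of 3 at Tfe3, 2 higher and 4 lower of 10 at Mitf and 3 higher and 3 lower of 8 at Tfec. Irf8 itself had 5 higher and 3 lower of 14. Beside all these counts stand the marker lists given above, with border-associated macrophage genes at 17 to 21 strong peaks in IRF8KO against 9 to 11 in WT and microglial genes at 29 to 43 against 40 to 44. Their part in the differences at lysosomal genes was not tested.

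At 10 months X04 negative 5xFAD microglia were compared with WT microglia of the same age and dye. No lysosomal region was called (limma, 2 at an unadjusted p under 0.05; 0.112% of all regions were called, 0.0624% higher and 0.05% lower), and the count was also 0 with array weights and when only these 4 libraries were fitted. The 2 with a low unadjusted p were the Npc2 start, at ranks 205 and 135 in WT and 374 and 530 in X04 negative libraries (−1.42 ± 0.48, adjusted p = 0.973), and the Psap region 16.9 kb before its start, at 1130 and 1226 against 2469 and 2811 (−1.16 ± 0.36, adjusted p = 0.938). The median difference over the 131 regions was −0.03. A p that misses the threshold does not show that the groups were alike.

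X04 positive microglia are those that carried the amyloid dye. Against WT 55 of 131 lysosomal regions were called, 1 higher and 54 lower, where 34.5% of all regions were called, 6.73% higher and 27.8% lower. Against X04 negative microglia 58 were called, 3 higher and 55 lower, where 38.3% of all regions were called, 8.35% higher and 29.9% lower. The 2 comparisons share the X04 positive libraries. These counts depended on single libraries. Against WT there were 16 without the first or without the second WT library, which is 13% and 12.9% of the lysosomal regions tested, against 17.3% and 16.8% of all regions. The lysosomal share then lay below that of all regions, while with all libraries it lay above it (42.0% against 34.5%). Without the first and the second X04 positive library there were 89 and 83, or 70.1% and 63.4%, against 63.6% and 56.0% of all regions. Against X04 negative there were 21 and 17 without the first and the second X04 negative library, or 16.7% and 13.8%, where all regions had 18.3% each time. Without the first X04 positive library there were 98, or 77.2%, against 66.3%. The median difference from WT was −1.44 at lysosomal regions and −0.87 over all regions. At the 3 lists of other pathway genes 63 of 216 regions were called against WT (29.2%), 9 higher and 54 lower, with a median of −0.88. At the microglial marker genes 21 of 46 were called (45.7%), 1 higher and 20 lower, with a median of −1.72. The X04 positive lists were the weakest of all, as given above. The 10 neuronal marker genes had 23 and 30 strong peaks in them and 5 to 7 in the other 10-month libraries, and the microglial list had 29 and 23 against 42 to 46. The part of library strength and of these marker counts in the result was not tested.

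Ctsb, the gene of cathepsin B, Ctso and Lgmn had the smallest adjusted p against WT. A region 19.3 kb from Ctsb (chr14:63102989-63103389) ranked 26646 and 32181 in WT and 26199 and 25963 in X04 negative libraries. It had no peak above the limit in both X04 positive ones (−2.11 ± 0.27, adjusted p = 0.00429). The Ctso region 16.5 kb before the start and the Lgmn region 12.6 kb inside the gene likewise had no peak above the limit in both X04 positive libraries. They ranked 22822 to 33062 in the other 4. At Ctsd a region 3.37 kb after the start ranked 25515 to 34204 in those 4 and had no peak above the limit in the X04 positive libraries. All 4 regions were close to rank 30000 in the WT and X04 negative libraries. They entered the test through WT and X04 negative libraries alone, so a lower rank in the X04 positive ones was likely from the choice of regions.

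Most of the lower regions lay away from starts. Of 81 lysosomal regions away from starts 44 were lower against WT and none higher, with a median difference of −1.79, and over all genes 36.8% of such regions were lower with a median of −1.37. The choice of regions weighs on this count, since a region had to be strong in 2 of 6 libraries and 4 of these were WT or X04 negative. Of the 81, 43 were strong in WT or X04 negative libraries only, which made a lower rank likely, and 33 of them were called. None was strong in X04 positive libraries only. Among the 38 strong in both, 11 were lower and none higher (28.9%), against 10.1% lower and 2.06% higher over all genes. Of 31 start regions 5 were called, 1 higher and 4 lower, with a median of 0.08. Over all genes 17.2% of start regions were called, 10.1% higher and 7.13% lower, with a median of 0.18. At the 6 genes without an entry 6 of 19 regions were lower and none higher, where 28% of such regions were lower. The median rank of the 34 lysosomal start regions was 8475.5 and 8379 in X04 positive libraries and 9925 to 11817 in the other 10-month libraries, so the starts did not rank later there. The median rank of the 130 regions away from starts was 121478 and 126070 against 24843 to 25840. Atp6v0d1 had the start that was higher, at 930 and 1044 in X04 positive libraries against 2696 and 2595 in WT and 3030 and 5218 in X04 negative ones (1.42 ± 0.37 against WT, adjusted p = 0.0295). Against X04 negative microglia the starts of Ctsd and Naglu, whose promoters are shown above, were also higher, by 1.71 ± 0.45 (adjusted p = 0.0286) and 1.21 ± 0.35 (adjusted p = 0.0375). In that comparison 3 of 31 lysosomal start regions were higher (9.68%) and 4 lower (12.9%). Over all genes 14.5% of start regions were higher and 6.53% lower, so the lysosomal share of higher starts lay below that of all genes. The number of lysosomal regions ranked higher changed with the processing. Against WT it was 0 with array weights and with no filter beyond 1 strong library, and 4 when peaks were ranked by fold enrichment. Against X04 negative it was 1 with array weights and 7 by fold enrichment, so the named rises are not firm. The lower starts against WT were those of Gusb (−2.36 ± 0.35), Cd68 (−2.20 ± 0.48), Ppt1 (−2.05 ± 0.38) and Smpd1 (−1.30 ± 0.35). The Cd68 start ranked 21753 and 35446 in X04 positive libraries and 4847 to 9004 in the other 4. A further 22 of the 196 lysosomal regions (11.2%) were strong only in X04 positive libraries, against 28.4% of all 65405 regions. Each of the 22 was strong in 1 library, and none was tested, since a test needed 2.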

How the data were processed

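ATAC-seq peak lists of 15 libraries were used, 1 list per library. Per the submitters' processing notes, bcl2fastq, Bowtie2, MACS2 2.2.7.1 and deepTools were used with mm10, without stated order or settings. In the deposited lists the authors give, per peak, the fold enrichment (a ratio), −log10 p and −log10 q and the summit's offset in base pairs, with a peak's integer score. Depth is unknown, so no counting interval is given. Regions were summits of the 30000 top peaks on chromosomes 1 to 19 and X, in order of rank, dropped within 400 bp of a better one. Ranks were tested with limma 3.58.1 (R 4.3.3), 4 group means over the 9 juvenile and 3 over the 6 older libraries, with trended empirical Bayes, called at an adjusted p under 0.05. The procedure was run on simulated ranks with known shifts at regions of middle rank, without the change of the genotype difference with age. Every region of a library had the same spread there, so the simulation does not check p-values at regions set to the limit. Members and lists were chosen with earlier results of these data known. Full values go to the 12 lysosomal regions with the smallest adjusted p for genotype, up to 3 in each other comparison with a call, the 3 genes with the most strong peaks and the best-ranked region of each role. Other named regions were chosen after their values were seen. The labels give no sequencing run or date, so no within-batch value can be given. Python 3.11.15, numpy 2.4.6, pandas 2.3.3 and matplotlib 3.10.9 were used. Alternatives are given at the end.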

Additional observations from a re-analysis of the deposited data

How the results depend on the processing

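Alternatives were 20000 and 50000 top peaks, no filter beyond 1 strong library, ranking by fold enrichment, a 400 bp window, assignment within 20 kb, only peaks with q under 0.01, array weights, a replicate block and leaving out each library. One further choice, made after seeing the data, fitted X04 negative and WT libraries alone. The genotype count of 73 of 138 (52.9%, against 50.8% of all regions) ran from 60 to 108, as the number of regions tested also changed. With 20000 top peaks it was 60 of 108 (55.6%, against 49.4%), and with 50000 it was 108 of 201 (53.7%, against 50.9%). Array weights gave 67 of 138, a share below that of all regions (48.6%, against 49.1%). The P14 count of 55 of 138 regions (39.9%) became 84 of 201 (41.8%) with 50000 top peaks, as more regions were tested. The IRF8KO age count of 4 became 12 (9 higher, 3 lower) by fold enrichment, 1 with array weights and 1 with the replicate block, and ran from 1 to 9 over libraries left out. The age interaction of 0 became 9 by fold enrichment and ran from 0 to 2. X04 positive counts with 20000 top peaks were 32 against WT and 36 against X04 negative, and ran from 16 to 89 and from 17 to 98 over libraries left out. Strong peaks per library, IRF8KO minus WT, averaged 4.17, turned to −4.42 with 20000 top peaks and ran from 0.667 to 7.67 over libraries left out. The X04 negative minus WT value of −1 ran from −5.5 to 3.5. The X04 positive minus WT value of −47 became −35.5 with 20000 and −82.5 with 50000 top peaks and ran from −52.5 to −41.5. The causes were not tested. Of the differences recomputed at single regions named by rule 360 kept their call and none turned, and 11 lost it, all at Scarb2 and Gusb between IRF8KO ages; Ppt1, not among them by that rule, lost its call too. Same-numbered libraries deviated together little (correlations −0.036 to 0.024 over 12 juvenile pairs and −0.015 to 0.0048 over 6 older ones). In groups of 2 the replicates deviate as mirror images, so some of these values repeat, and they cannot exclude a pairing. The replicate block gave 66 genotype calls (47.8%, against 48.3% of all regions), 49 at P9 (35.5%, against 37.2%) and 50 at P14 (36.2%, against 40.6%). For X04 positive it gave 50 against WT (38.2%, where all regions had 31.6%) and 51 against X04 negative (38.9%, where all regions had 35.5%). The weak X04 positive lists limit what can be seen away from starts there.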
